A study of Mus musculus with 48 samples.

Results

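Universal Mouse Reference RNA is a commercial pool of RNA from mouse cell lines of several tissues, and 1 array of it was run beside arrays of embryonic stem cells that were leaving the naive state. The genes described here are the 130 of 22745 whose value on the reference array lay at least 3 log2 units, or 8-fold, above the highest of the 47 cell arrays. That makes 0.572% of the table. They were chosen by these array values, reference against cells, so the gap between reference and cells is a description with no test. The tests below compare cell arrays with each other only. Because the choice puts a ceiling on every cell array, a gene that rose close to its reference level could not be a member.

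The cells came from 3 lines. XX and XO cells are both Pgk12.1 embryonic stem cells, and XY cells are E14, so the XY karyotype and the E14 line cannot be told apart. Before the course all had been kept in N2B27 medium with the Gsk3 inhibitor CT-99021, the Mek1 inhibitor PD-0325901 and LIF, the cytokine that holds mouse embryonic stem cells undifferentiated. At 0 h they were plated on fibronectin in N2B27 with Activin A and basic Fgf, which leads them towards epiblast stem cells, a later, primed form of pluripotency. RNA was taken between 0 and 84 h on 18 XX, 19 XO and 10 XY arrays. Arrays lettered A and B exist at 0 h in each line and at 36 h in both Pgk12.1 lines, while every other condition has 1 array. The labels do not state separate cultures for A and B, and p-values at 0 h therefore reflect array-to-array spread, which may be technical. In the time course tests the spread is mainly the scatter of single arrays around a smooth fitted curve. Nearly all arrays of a line carry the letter B, so course p-values rest on 1 lettered series per line.

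Pluripotent cells keep most genes of differentiated tissues at low levels, many of them under repressive chromatin until a lineage is chosen. Per the labels, the pool was amplified alongside the samples to check robustness. All samples are bulk RNA, so fewer cells with an RNA and less RNA per cell cannot be told apart. Values are log2 expression after robust multi-array averaging (RMA), per Ensembl gene. The files do not pair the Ensembl identifiers with gene symbols, and 0 of them matched the gene table at hand. Tissue and function of the members are therefore not stated, and each comparison names at most 2 of them per direction.

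The array taken as reference is the one whose source name is the reference RNA, although its description field names differentiated cells at 84 h. Across genes it correlated at 0.803 to 0.836 with the cell arrays, below the lowest correlation between any 2 cell arrays (0.866). Its median of 6.83 and interquartile range of 3.15 lay within the ranges of the cell arrays, whose medians ran from 6.80 to 7.10. The reference has 1 array, so its levels have no replicate check. As a measure of array noise, the SD of A minus B over the members was 0.27 to 0.38 log2 units in the 5 duplicated conditions, against 0.32 to 0.39 over all genes.

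In reference RNA the members were among the brighter genes. Their values ran from 7.64 to 13.28 with a median of 10.18, which put the median member at percentile 92.5 of that array. Of the 130, 82 were above its 90th percentile and 11 above its 99th. In cells the median of a member over the 47 arrays ran from 3.42 to 8.27, with a median over members of 5.18, and the median member sat at percentile 18.4. Over all genes the median cell value had a median of 6.95. The gap between reference and highest cell array had a median of 3.88 and a maximum of 7.16 among members, and a median of -0.94 over all genes. The gap was at least 4 log2 units for 56 members, at least 5 for 21 and at least 6 for 6.

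**Figure D1:**
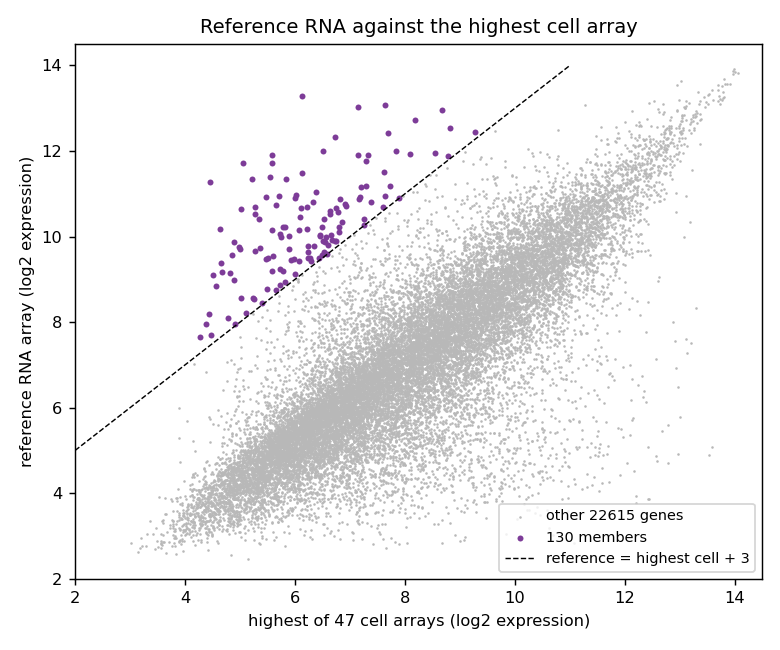
Value on the reference RNA array against the highest of the 47 cell arrays, both in log2 expression, with 1 point per gene. The 130 members (purple) lie on or above the dashed line, 3 log2 units over equality, with reference values from 7.64 to 13.28, and the other 22615 genes (grey) lie below it.

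The widest gap belonged to ENSMUSG00000076613, at 13.28 in reference RNA. XX arrays stayed within 5.46 to 6.12 (median 5.83), XO arrays within 5.41 to 6.09 (median 5.84) and XY arrays within 5.44 to 6.07 (median 5.70). The ranges of the 3 lines overlapped almost completely, and no course of this gene passed the test (limma F test, adjusted p = 0.571 in XX, 0.694 in XO and 0.228 in XY). ENSMUSG00000062593 followed with a gap of 6.82. Its reference value was 11.29, and XX arrays gave 3.28 to 4.15, XO arrays 3.40 to 4.44 and XY arrays 3.44 to 4.46. Its XO course passed (limma F test, adjusted p = 0.0117) with a fitted change of 0.71 (SE 0.26), which left it among the dimmest genes of every array.

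Around the threshold there was no step. The last 3 members had gaps of 3.012, 3.009 and 3.007, and the first 3 genes left out had gaps of 2.9996, 2.996 and 2.984. A further 158 genes had gaps between 2 and 3 log2 units.

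The members had been put forward as silent in stem cells throughout the course, which these values cannot show. On all 47 cell arrays 103 members stayed at or below the array's own median. The other 27 rose above it on at least 1 array, 8 of them on more than 23 arrays and 0 on all 47, and 3 passed the 75th percentile of an array. Any 1 cell array had between 6 and 13 members above its median. Array values carry no detection call here, so a low value does not show that the RNA was absent. Of the 103 members that stayed low, 54 passed in 1 or 2 of the time courses described below, where 46.6% of all genes did. In all 3 courses 2 of them passed, where 23.4% of all genes did. The members are therefore called reference-high genes below and not silent genes.

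The brightest member in cells was ENSMUSG00000005125. It stood at 12.43 in reference RNA and at 8.17 to 9.28 in XX (median 8.84), 6.89 to 8.90 in XO (median 7.90) and 5.85 to 8.74 in XY (median 8.07). Even its lowest XX value was well above the medians of the cell arrays. In XY it swung widely between neighbouring times, from 8.72 at 48 h to 5.85 at 60 h and 8.13 at 72 h.

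**Figure D2:**
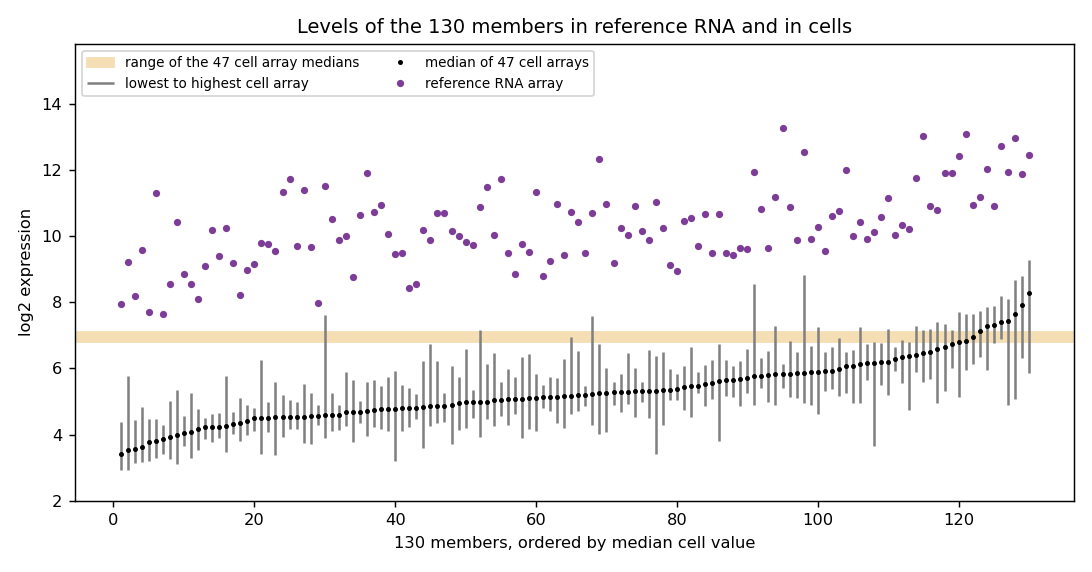
Log2 expression of the 130 members, ordered along the x axis by their median in cells, with grey lines from the lowest to the highest of 47 cell arrays, black points at the median and purple points for the reference array. The band marks the medians of the cell arrays (6.80 to 7.10), which 27 members cross on at least 1 array.

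Members differed in how steady they were across cells. The range of a member over the 47 arrays had a median of 1.50 log2 units, from 0.61 to 3.87, against a median of 1.60 over all genes. It was under 1 for 28 members, at least 2 for 38 and at least 3 for 9. The SD over the arrays had a median of 0.32 for members and 0.35 for all genes.

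The mean level of the reference-high genes stayed between 5.06 and 5.47 on all cell arrays. On XX arrays it was 5.29 and 5.20 at 0 h, between 5.37 and 5.42 from 6 to 24 h, between 5.36 and 5.45 from 32 to 48 h, between 5.30 and 5.39 from 52 to 72 h and 5.36 at 84 h. In XO it was 5.20 and 5.25 at 0 h, between 5.29 and 5.35 from 6 to 24 h, between 5.30 and 5.44 from 28 to 48 h, between 5.43 and 5.47 from 52 to 72 h and 5.45 at 84 h. XY arrays stood at 5.12 and 5.12 at 0 h, 5.06 at 16 h, 5.34 at 32 h and 5.25 at 84 h. XX arrays were thus highest in mid-course, at 36 h, and lower again later. The 2 highest means were XO arrays, at 60 and 72 h, and the 5 lowest were XY arrays. The median of all genes did not follow these means throughout. In XO it went from 6.84 and 6.91 at 0 h to 7.09 at 84 h, but it was 6.95 on the XO array at 60 h, which has the highest member mean, and 6.80 on the XY array at 32 h, the lowest of all cell arrays. The narrow XY array at 32 h, with an interquartile range of 2.86, and the wide one at 16 h, with 3.44, held the highest and the lowest XY mean. XO arrays from 52 to 66 h had ranges of 2.77 to 2.93, and that at 60 h was the narrowest of all cell arrays. The XO array at 72 h had 3.21. The part of these array properties in the member means was not tested.

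**Figure D3:**
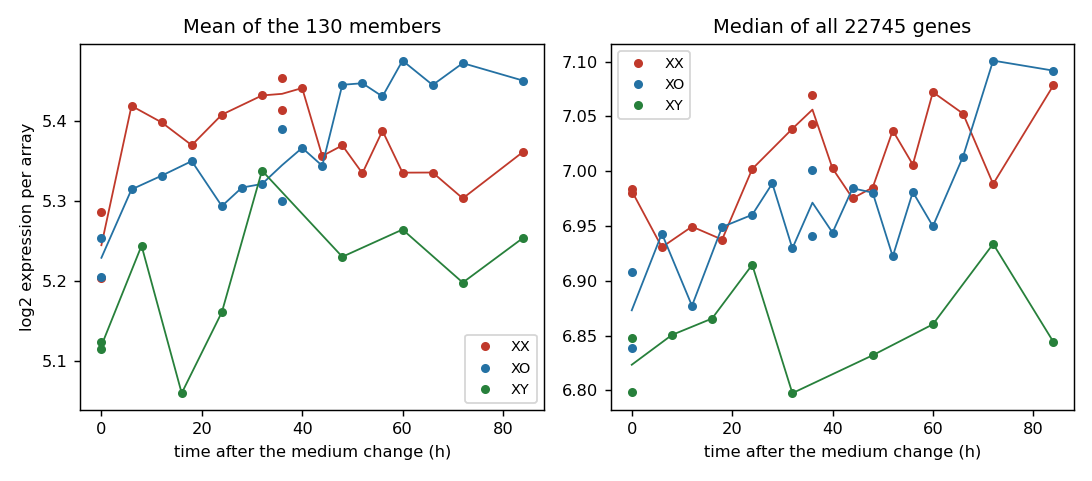
Mean log2 expression of the 130 members (left) and median of all 22745 genes (right) on each cell array against time in hours, with lines through the mean at each time. Late XO arrays hold the highest member means (up to 5.47) and the XY array at 16 h the lowest (5.06), and the right panel shows that array medians also differed between lines.

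The highest cell value of a member fell on an XO array for 55 members (42.3%, where XO has 40.4% of the arrays), on an XX array for 43 (33.1%, against 38.3%) and on an XY array for 32 (24.6%, against 21.3%). Within XO, 31 of the 55 lay on the 5 arrays from 52 to 72 h and 9 at 84 h, with 10 each at 60 and 72 h. Within XX, 17 of the 43 lay on the 4 arrays from 6 to 24 h. The lowest value fell on an XY array for 72 members, 32 of them on the 3 XY arrays from 8 to 24 h. Medians of all genes ran from 6.80 to 6.93 on XY arrays, 6.93 to 7.08 on XX and 6.84 to 7.10 on XO arrays. Where the highest and lowest values of all genes fell was not counted, so these counts cannot be called particular to the members.

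Time courses asked which reference-high genes moved as the cells left the naive state. The share of them that passed was below that of all genes, a difference that was not tested. More members ended higher than lower in each line, and all genes leaned the same way in XX and XO but not in XY. In XX the lean of the members did not hold with centred or quantile-normalized arrays. In XX, 29 members were called, 19 ending higher and 10 lower (limma F test of a spline per line, Benjamini-Hochberg adjusted p under 0.05). The call took 34.1% of all genes, 18.3% ending higher and 15.7% lower. In XO, 46 members were called, 31 higher and 15 lower, against 53.9%, 36.0% and 18.0% of all genes. In XY, 40 members were called, 22 higher and 18 lower, against 50.2%, 24.8% and 25.4%. As shares of the 130 these are 22.3%, 35.4% and 30.8%. The split depends on the scaling: with arrays centred on their medians it was 14 higher and 18 lower in XX and 28 and 26 in XO, and quantile normalization gave 13 and 15 in XX but 31 and 15 in XO. A fitted change of at least 1 log2 unit from 0 to 84 h was reached by 7 called members in XX, 15 in XO and 16 in XY, where 8.96%, 14.4% and 17.4% of all genes were called and moved as far.

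The members are mostly dim genes. In 104 members no cell value exceeded the median of all cell values, 6.96, and 7453 of all genes were as dim. Among the dim members 18 were called in XX (17.3%), 35 in XO (33.7%) and 26 in XY, while the dim genes as a whole gave 13.1%, 25.4% and 25.2%. The difference between these shares was not tested.

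In 55 members no course passed in any line, against 30.0% of all genes, and 66 passed in 1 or 2 lines (44 in 1 and 22 in 2), against 46.6%. The 55 without a call still had ranges of 0.62 to 3.43 log2 units over the arrays, and their median gap to reference was 3.98. The 3 courses share 1 spread per gene in the fit. In 9 members all 3 courses passed, where 23.4% of all genes did, and 7 of these ended higher in every line, against 10.4%. Direction is the sign of the fitted change alone. Some of these changes were small beside their SE, such as 0.09 (SE 0.34) in XX for a member and 0.16 (SE 0.17) in XY for another. A member lower in every line was not found (0 with limma at the adjusted threshold and 0 at an unadjusted p under 0.05, where 6.40% of all genes passed and ended lower in each line). The members above an array median at least once made up 7 of the 9.

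**Figure D4:**
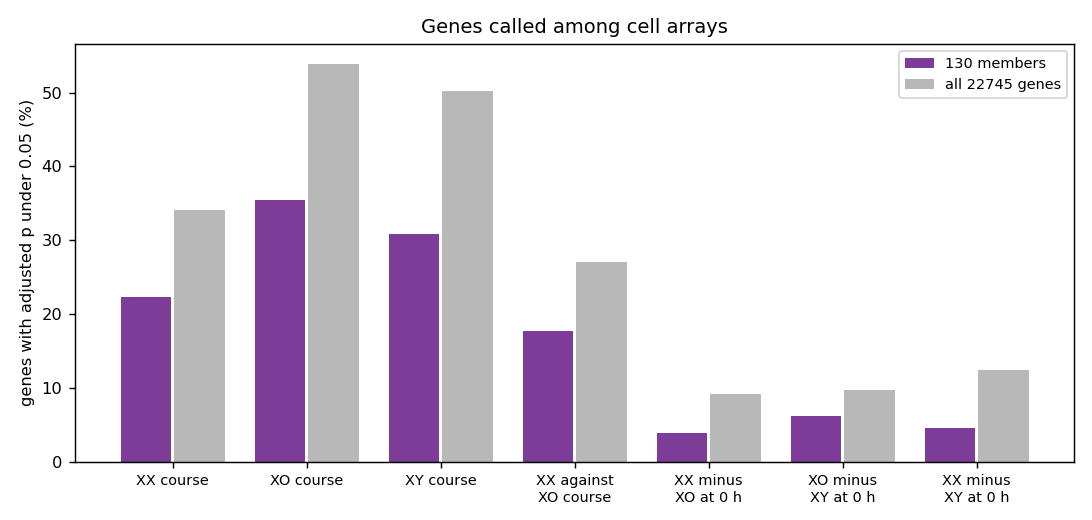
Share of genes in percent with adjusted p under 0.05 in 7 tests among cell arrays, for the 130 members (purple) and all 22745 genes (grey). The purple bars are the shorter ones, for example 22.3% against 34.1% in the XX course, where all genes include many of higher level than the members; the difference of the shares was not tested.

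ENSMUSG00000012519 had the largest mean rise among members that rose in each line. At 0 h XX arrays measured 4.11 and 3.92, XO arrays 4.14 and 4.51 and XY arrays 4.01 and 4.14, and at 84 h the lines were at 5.97, 7.16 and 6.37. XX arrays were already at 4.74 to 5.35 from 6 to 24 h, whereas XO arrays stayed at 4.14 to 4.39 over those times and stood at 5.00 or more from 44 h on. The fitted change in XX was 1.56 (SE 0.36), that in XO 2.60 (SE 0.36) and that in XY 2.04 (SE 0.37) (limma F test, adjusted p = 1.88e-05, 1.49e-08 and 4.23e-05). Without the 84 h arrays the change, then from 0 to 72 h, was 1.38 in XO and 1.24 in XY, and both courses still passed. The XX and XO courses differed (limma F test of the difference, adjusted p = 0.00652). At its highest it was 3.71 log2 units under the reference value of 10.88, where the membership rule sets a gap of at least 3.

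ENSMUSG00000020467 rose late. At 0 h the XX arrays gave 4.90 and 4.54, the XO arrays 4.32 and 4.26 and the XY arrays 5.27 and 4.78, and all 3 lines were at 3.91 to 4.23 at 24 h. It reached 6.80 in XX and 6.81 in XO at 84 h, and 7.62 in XY at 72 h before 6.03 at 84 h. In XO every array before 66 h was below 5 and the rise rests on the last 3 times. Fitted changes were 1.83 (SE 0.40), 2.25 (SE 0.40) and 1.27 (SE 0.41) in XX, XO and XY (limma F test, adjusted p = 0.000328, 5.52e-06 and 4.94e-08). Without the 84 h arrays the fitted changes from 0 to 72 h were 0.82, 0.80 and 2.58, with limma adjusted p of 0.0477, 0.0340 and 3.57e-08. The reference value was 11.50.

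The members with the largest falls fell in XY, and both falls rest on 1 array. ENSMUSG00000076735 measured 6.88 and 7.32 in XY at 0 h, between 6.18 and 7.56 from 8 to 72 h, and 4.90 at 84 h. Its fitted change was -1.91 (SE 0.39, limma F test, adjusted p = 0.000649). Without the 84 h arrays the change, then from 0 to 72 h, was 0.018 (same test, adjusted p = 0.0863). ENSMUSG00000005583 lay between 5.19 and 5.95 on the 9 XY arrays up to 72 h and at 3.67 at 84 h. Its change was -1.78 (SE 0.26, limma F test, adjusted p = 4.86e-06), and that from 0 to 72 h was -0.065 without the 84 h arrays (same test, adjusted p = 0.640). In XX and XO neither gene passed, with XX arrays of ENSMUSG00000005583 at 5.84 to 6.79 and XO arrays at 5.99 to 6.81. Without the 84 h arrays of all lines, 31 members were called in XY, 21 of them higher and 10 lower at 72 h in the fit. The share of all genes called without these arrays is not given here, so the counts cannot be called particular to the members.

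XX and XO cells were then compared for how the members changed with time. The test of the difference called 23 members (17.7%), against 27.1% of all genes, and in the dim class 12 of 104 members (11.5%), against 12.4%. The XX minus XO difference in change, taken where it was largest, was positive for 8 members and negative for 15, against 11.1% and 16.0% of all genes. Sizes ran from 0.75 to 2.48 log2 units among the 8 and from 0.44 to 2.62 among the 15.

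The most pronounced transient was that of ENSMUSG00000047250. In XX it measured 5.61 and 4.99 at 0 h, 6.31 at 6 h, 8.03 at 12 h, 8.46 at 18 h, 8.38 at 24 h and 6.27 at 32 h. XY cells showed a similar shape, with 5.16 and 4.89 at 0 h, 8.54 at 16 h, 7.68 at 24 h and 5.42 at 32 h. XO arrays, at 5.31 and 5.29 at 0 h, reached no more than 6.43, at 12 h, and were at 6.06 at 18 h and 5.87 at 24 h. From 12 to 24 h the XX arrays thus lay above every XO array of the course. The course passed in XX and XY (limma F test, adjusted p = 1.25e-10 and 5.89e-10) and did not in XO (adjusted p = 0.178), and the XX and XO courses differed by up to 2.48 (limma F test of the difference, adjusted p = 2.51e-05). At its highest the gene was 3.40 log2 units below the reference value of 11.94, so it met the membership rule in spite of this rise.

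ENSMUSG00000036103 peaked at different times in both Pgk12.1 lines. In XX it went from 5.54 and 5.20 at 0 h to 7.25 and 7.07 at 36 h and 6.29 at 84 h. XO cells had 5.57 and 5.72 at 0 h, 6.64 at 24 h, 5.56 and 5.86 at 36 h and 6.65 at 84 h. At 36 h the XX and XO duplicates did not overlap. The courses differed by up to 1.37 (limma F test of the difference, adjusted p = 5.41e-06). The fitted change from 0 to 84 h was 0.92 in XX and 1.00 in XO. Without the 84 h arrays the fitted change from 0 to 72 h was 0.60 in XX and 0.23 in XO, with both courses still past the threshold. The XO change to 84 h thus rests mainly on the last array. With a gap of 3.007 it was also the last member inside the threshold.

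The member with the largest XO rise was ENSMUSG00000005087. In XO it was at 5.63 and 5.63 at 0 h, 5.10 at 24 h, 6.15 at 40 h, 7.23 at 48 h, 8.20 at 72 h and 8.82 at 84 h. XX arrays held between 5.45 and 6.63 over the whole course, with 6.53 at 84 h, and XY arrays had 7.25 at 72 h and 6.39 at 84 h. Fitted changes were 3.04 (SE 0.32) for XO, 0.42 (SE 0.32) for XX and 1.19 (SE 0.33) for XY (limma F test, adjusted p = 1.93e-14, 0.00738 and 0.000179). The XX minus XO difference in fitted change from 0 to 84 h was -2.62 (SE 0.46). The courses as a whole differed (limma F test of the difference, adjusted p = 1.96e-06). The XO value at 84 h was 3.72 log2 units below the reference value of 12.54, where the membership rule sets a gap of at least 3.

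ENSMUSG00000022098 gave a less certain difference. XX arrays measured 6.16 and 4.78 at 0 h (5.47 ± 0.97, SD, n = 2), 7.60 at 6 h and 4.86 at 84 h. XO arrays measured 4.67 and 4.30 at 0 h, 5.75 at 6 h and 6.14 at 84 h. XY arrays, whose course did not pass (limma F test, adjusted p = 0.509), had 5.23 and 4.60 at 0 h and 7.14 at 8 h. The difference between courses of -2.18, reached at 84 h, passed narrowly (limma F test, adjusted p = 0.0426). Without the 84 h arrays the largest difference, then over 0 to 72 h, was -1.06 (limma, adjusted p = 0.248). Its size stayed near the main value but the call was lost with centred arrays (-2.04, limma adjusted p = 0.0568) and without the 5 arrays of narrowest interquartile range (-2.27, adjusted p = 0.104). The same held when XX 0 h A, XX 36 h B, XO 0 h A or XO 0 h B was left out, with values of -1.89 to -2.19 and limma adjusted p of 0.0505 to 0.0558.

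**Figure D5:**
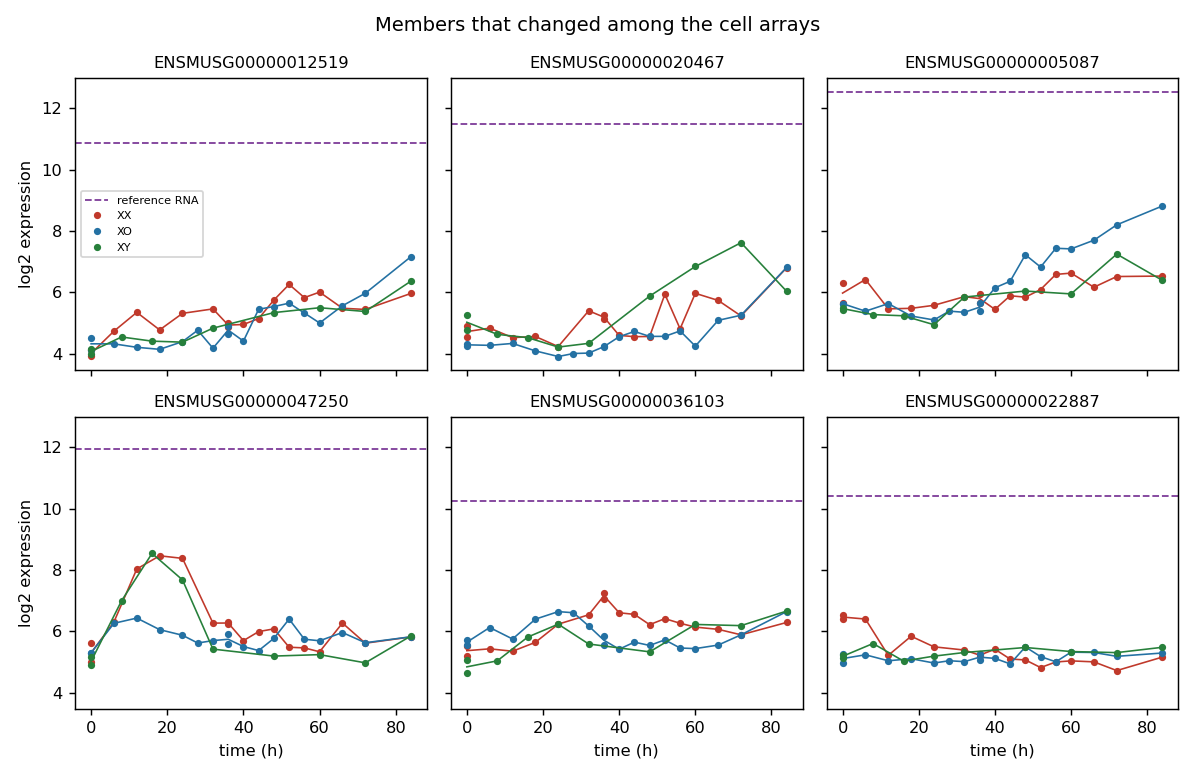
Log2 expression against time in hours for 6 members in XX (red), XO (blue) and XY (green) arrays, 1 point per array with lines through the mean at each time, and the reference RNA value as a dashed line. ENSMUSG00000047250 shows the transient in XX and XY (up to 8.46 and 8.54) that stays at or below 6.43 in XO, and ENSMUSG00000005087 the late XO rise to 8.82.

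At 0 h few members separated the undifferentiated lines. Between XX and XO, 5 members were called, 3 higher and 2 lower in XX (limma, adjusted p under 0.05), where 9.15% of all genes were called, 7.53% higher and 1.62% lower. At an unadjusted p under 0.05 the count was 21. XO against XY gave 8 members, 6 higher and 2 lower in XO, against 9.70%, 4.27% and 5.43% of all genes. XX against XY gave 6 members, 5 higher and 1 lower in XX, against 12.4%, 8.80% and 3.64%. These comparisons share arrays, and 13 members were called in at least 1 of them. Quantile normalization gave 4 members for XO against XY, 2 in each direction, and centred arrays gave 5 higher and 3 lower. The counts also depend on single arrays. XX against XO had 2 calls when XO A was left out and 3 when XO B was. XO against XY had 1 call when either XO array was left out and 3 when either XY array was. XX against XY had 2 calls when XY A was left out.

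ENSMUSG00000005125, the brightest member in cells, had the largest 0 h difference among the 5. The XX arrays measured 8.42 and 9.02, the XO arrays 7.02 and 7.14 and the XY arrays 7.66 and 8.02, so the duplicates of the 3 lines did not overlap. XX minus XO was 1.64 (SE 0.21, limma, adjusted p = 0.00232) and XX minus XY 0.88 (SE 0.21, limma, adjusted p = 0.0285), both from the same XX arrays.

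ENSMUSG00000022887 was higher in XX cells at the start and fell on the way. At 0 h the XX arrays stood at 6.53 and 6.41, the XO arrays at 4.98 and 5.25 and the XY arrays at 5.14 and 5.24. The difference of XX from XO was 1.35 (SE 0.15, limma, adjusted p = 0.00128). In XX it was still 6.40 at 6 h, fell to 5.19 and 5.26 at 36 h and was 5.16 at 84 h, while all XO arrays stayed between 4.94 and 5.49. The fitted XX change was -1.38 (SE 0.22, limma F test, adjusted p = 2.09e-09), and the XX and XO courses differed (limma F test of the difference, adjusted p = 3.45e-06). From 12 h on its XX values, between 4.72 and 5.84, overlapped those of XO and XY, whose arrays reached 5.49 and 5.60.

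Both members called lower in XX than in XO at 0 h lay close to the threshold. ENSMUSG00000029334 measured 4.71 and 4.05 on XX arrays and 5.32 and 5.77 on XO arrays, a difference of -1.17 (SE 0.29, limma, adjusted p = 0.0382). It kept its sign but did not pass without XX B (-0.84, limma adjusted p = 0.172), XO A (-1.40, adjusted p = 0.0728) or XO B (-0.94, adjusted p = 0.220). ENSMUSG00000062991 measured 5.41 and 5.55 on XX arrays, 6.13 and 6.08 on XO arrays and 5.27 and 4.96 on XY arrays. Its XX minus XO value of -0.63 (SE 0.15, limma, adjusted p = 0.0315) stayed between -0.56 and -0.69 when any of the 4 arrays was left out, with fewer arrays and limma adjusted p of 0.0681 to 0.149, and the XX and XO duplicates did not overlap. Later in the course its XO arrays, at 6.29 to 7.26 from 6 h on, lay above all XX arrays, which did not exceed 6.13.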

How the data were processed

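Per the labels' protocols, RNA was hybridised to Affymetrix mouse Exon 1.0 ST arrays. The authors deposited 1 log2 value for each Ensembl gene and array; the submitters' processing notes name RMA and affy. Their versions, the probe annotation and the build were not given in the sources used here. Arrays have no read depth, so their number limits the precision.

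From these values, limma 3.58.1 in R 4.3.3 gave all tests, which were two-sided (lmFit and eBayes, threshold of 0.05 after Benjamini-Hochberg adjustment across 22745 genes). The 0 h comparisons were fitted on the 10 arrays of duplicated conditions (5 residual degrees of freedom). Each line's course was a natural spline of time with 4 degrees of freedom (knots at 17, 36 and 56 h) over 47 arrays (32 residual degrees of freedom), called by the F test of the spline terms, with the fitted 84 h minus 0 h value as direction. The fits were also run on simulated independent noise without array-wide effects. That run checks the code and not the noise of these arrays, and its outcome is not given here. Alternatives were scaling, a filter on low values, trend, spline, a replicate block and left-out arrays. Without the 84 h arrays the spline was refitted, and the fitted change is then the 72 h minus 0 h value.

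The members and lists were chosen with earlier results of these data known. The 22 gene lists of tissue markers could not be applied, because no identifier could be named. Identifiers printed are those of the widest gaps, and for each comparison at most 2 per direction with the largest fitted difference (for the courses, the largest mean rise in all lines and the largest fall in any line). The rule was limited to these identifiers once names were found to be missing.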

Additional observations from a re-analysis of the deposited data

Results flagged for a closer look

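The courses of 23 members differed between XX and XO by the test of the difference itself. The largest fitted XX minus XO differences in change were 2.48 for ENSMUSG00000047250 and 1.37 for ENSMUSG00000036103 on the higher side, and -2.62 for ENSMUSG00000005087 and -2.18 for ENSMUSG00000022098 on the lower side. For ENSMUSG00000047250 the XX values from 12 to 24 h (8.03, 8.46 and 8.38) were each on 1 array, as were the XO values at those times (6.43, 6.06 and 5.87).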

How the results depend on the processing

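The set held 288 genes at a threshold of 2 log2 units, 56 at 4 and 212 against XY arrays alone, and between 146 and 182 with centred arrays, quantile normalization, the second highest cell array or XX or XO arrays alone. All 130 members were in each of these sets except that at 4. For the threshold of 2, the second highest array and single lines the rule itself ensures this. Only centred or quantile-normalized arrays could have lost a member. Restricting the tests to genes with a cell value above 6.96 left 26 members to be tested. Of these 26, 2 were called for XX against XO at 0 h and 12 for XX against XO courses. The XX, XO and XY courses called 11, 13 and 14. These counts are lower because fewer members were tested, and they do not show a weaker result. Quantile normalization gave 4 members for XO against XY at 0 h. Leaving out 1 array gave 2 to 5 members for XX against XO, 1 to 3 for XO against XY and 2 to 6 for XX against XY at 0 h, 22 to 32, 40 to 46 and 37 to 39 for the XX, XO and XY courses and 21 to 27 for XX against XO courses. A lone remaining 0 h array is assumed to vary like the other conditions. Under the other settings 45 recomputed counts stayed within 1.5 times. Without the 84 h arrays, the fitted XY change, then from 0 to 72 h, was 0.018 for ENSMUSG00000076735. For ENSMUSG00000047250 it was -0.0045 while its course still passed (limma, adjusted p = 3.14e-10).

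The labels do not say whether arrays with the same replicate letter were handled together. A minus B correlated at -0.13 to 0.19 between conditions. With the letter as a replicate block, 5, 6 and 6 members were called at 0 h (XX against XO, XO against XY, XX against XY), 29, 46 and 41 in the XX, XO and XY courses and 25 between XX and XO courses. Leaving out the 5 arrays of narrowest or the 1 of widest interquartile range, chosen after seeing the data, gave 28, 40 and 38 or 28, 46 and 40 called members in the XX, XO and XY courses. Shares of all genes under these alternative settings are not given here, so a shift of the whole table would not be seen. Dim values, without a detection call, limit how small a change can be seen.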

Other observations

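The opposite set, genes at least 3 log2 units lower in reference RNA than on every cell array, held 73 genes. Their reference values ran from 2.83 to 8.48 with a median of 4.86, and their medians over cell arrays from 7.87 to 12.90 with a median of 10.59. Over all genes the reference array held the highest of the 48 values for 2701 and the lowest for 4571.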
